A study of Mus musculus with 24 samples.

Results

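Inguinal white adipose tissue of wild-type (WT) mice fed a Western diet was compared with that of WT mice fed chow, over every gene with a mean of at least 0.5 FPKM across the 12 inguinal libraries. FPKM counts a gene's fragments relative to its length and to the depth of the library. Of 54532 genes in the table, 14685 met this rule. The groups were 3 WT mice on chow and 3 WT mice on Western diet (WD), and beside them 3 mice on each diet that carried a knockout (KO) of Mrs2. All mice started their diet at 13 weeks of age and stayed on it for 52 weeks. Mrs2 encodes a channel through which magnesium enters mitochondria. RNA came from 100 mg of frozen powder of the whole fat depot, from which the lymph nodes had been taken out. The labels state neither sex nor strain, nor what the diets contained or how the allele was made.

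White adipocytes store fatty acids as triglyceride. They take the fatty acids up from lipoproteins or make them from glucose, in a pathway that runs through ATP citrate lyase (Acly), acetyl-CoA carboxylase (Acaca) and fatty acid synthase (Fasn), and whose products are lengthened by the elongase Elovl6. Dietary fat is known to lower this synthesis. Under a long surplus the cells grow, and the imprinted gene Mest is widely used as a marker of such growth in mouse fat. Fat also holds macrophages, vessels and progenitor cells, and a bulk library mixes the RNA of them all, so fewer cells of a type and less RNA per cell cannot be told apart here.

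On WD, Mest rose from 5.72 ± 6.96 to 122.7 ± 8.05 FPKM (mean ± SD, n = 3), Peg3 and Oxtr rose, and the cytochrome Cyp2e1 fell from 867 ± 133 to 38.8 ± 29.0 FPKM. Of the 27 enzymes and regulators of fatty acid synthesis, 6 fell and none rose. In all, 312 of 14685 genes (2.12%) were called at an adjusted p under 0.05, 199 of them higher on WD (1.36% of the genes tested) and 113 lower (0.769%). The test was limma on log2(FPKM + 1) over the 12 inguinal libraries with Benjamini-Hochberg adjustment, and each fold change below is on that scale, which understates changes of low genes. Each comes with its standard error (SE). Of the called genes, 86 rose and 44 fell by at least 1 log2 unit. Mest lost its call whenever 1 WT library was left out, while Peg3 kept its call each time. The median fold change over all 14685 genes was 0.01, and 51.8% were above 0.

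The number of calls was sensitive to single libraries. Without WT chow library 1, 2 or 3 the count was 137, 38 or 84, and without WT WD library 1, 2 or 3 it was 287, 31 or 22. Leaving out KO chow library 1 gave 157 calls and leaving out KO WD library 1 gave 169, since the KO libraries help to set the spread. All 312 genes kept their direction in each of these fits. This was fixed in advance, because the WT groups of these genes did not overlap, so it lends the calls no support. A total of 15 genes were called in every one of the 6 fits that lacked 1 WT library, and 87 in none of them. For most called genes described below, the number of these fits that kept the call is given with the values. All 312 had 3 WD values on 1 side of the 3 chow values, as did 27.3% of all genes tested, with 15.5% higher on WD and 11.8% lower.

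**Figure D1:**
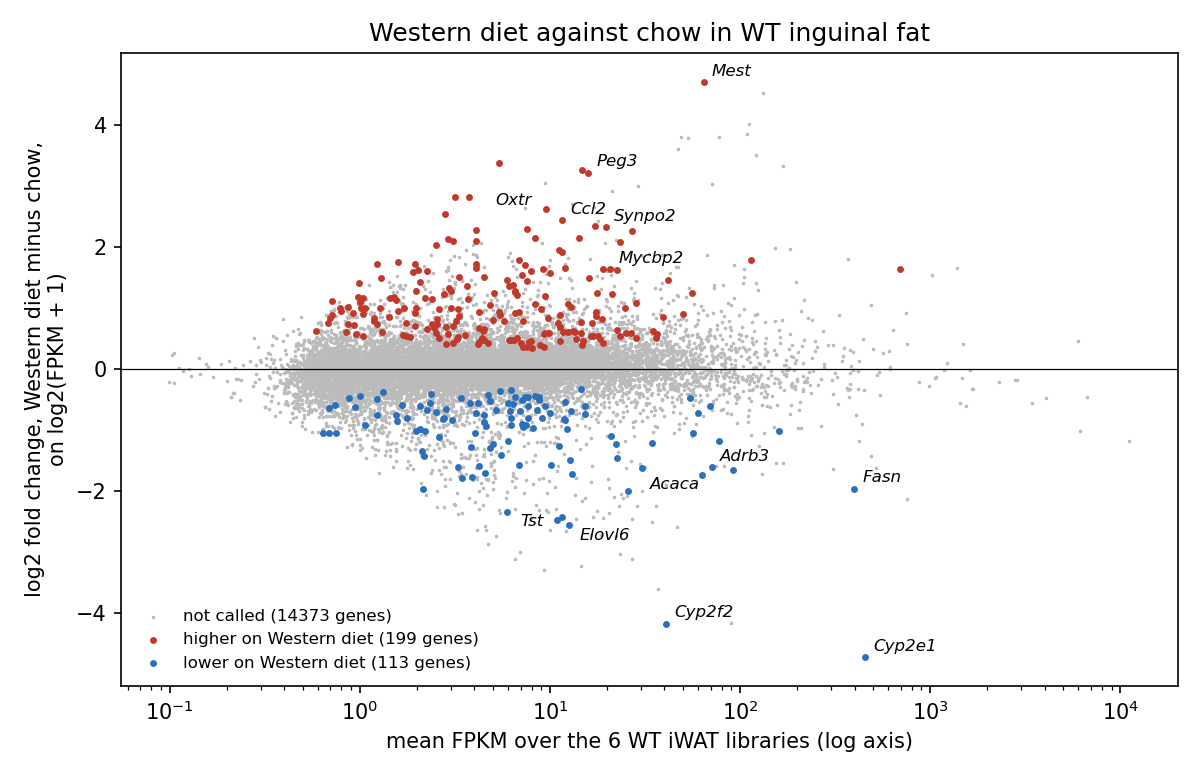
Each point is 1 of 14685 genes, with its mean level over the 6 WT inguinal libraries on the x axis (FPKM, log axis) and its log2 fold change from chow to Western diet on the y axis. The 199 genes called higher are red and the 113 called lower are blue; Mest at 4.71 and Cyp2e1 at -4.73 lie at the ends, and many uncalled grey genes lie as far from 0 as called ones.

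Several libraries stood apart, and these values bear on what follows. Summed over 20 skeletal muscle markers, the level was 53.2, 200.5 and 44.4 FPKM in the chow libraries and 5169, 408 and 197 FPKM in the WD libraries, so WD library 1 was far above the rest. All 18 muscle markers tested were above 0 on the fold-change scale, with a median of 2.99, and none was called. Red blood cell markers summed to 1411, 966 and 1165 FPKM on chow and 7756, 3276 and 1813 FPKM on WD. T and NK cell markers summed to 94.3, 48.8 and 332 FPKM on chow and 56.1, 23.0 and 21.5 FPKM on WD, with chow library 3 the highest. B cell markers summed to 1250, 3029 and 1339 FPKM on chow and 1589, 328 and 288 FPKM on WD. All 12 B cell and all 19 T and NK cell markers tested were below 0, none was called, and the lymph nodes had been removed from every depot. With WD library 1 and chow library 3 both left out, 52 genes were called, 33 higher and 19 lower, and 41 of the 312 were among them. The labels do not tell whether these marker differences come from dissection or from the depot itself. Their part in the gene-level results below was not tested beyond that fit. The labels held for the tissue, as the adipocyte hormone Adipoq stood at 826 to 1458 FPKM in the 6 libraries, and for the genotype, as Mrs2 stood at 2.74 to 5.01 FPKM in them and at 1.6 to 2.25 FPKM in the 6 KO inguinal libraries.

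**Figure D2:**
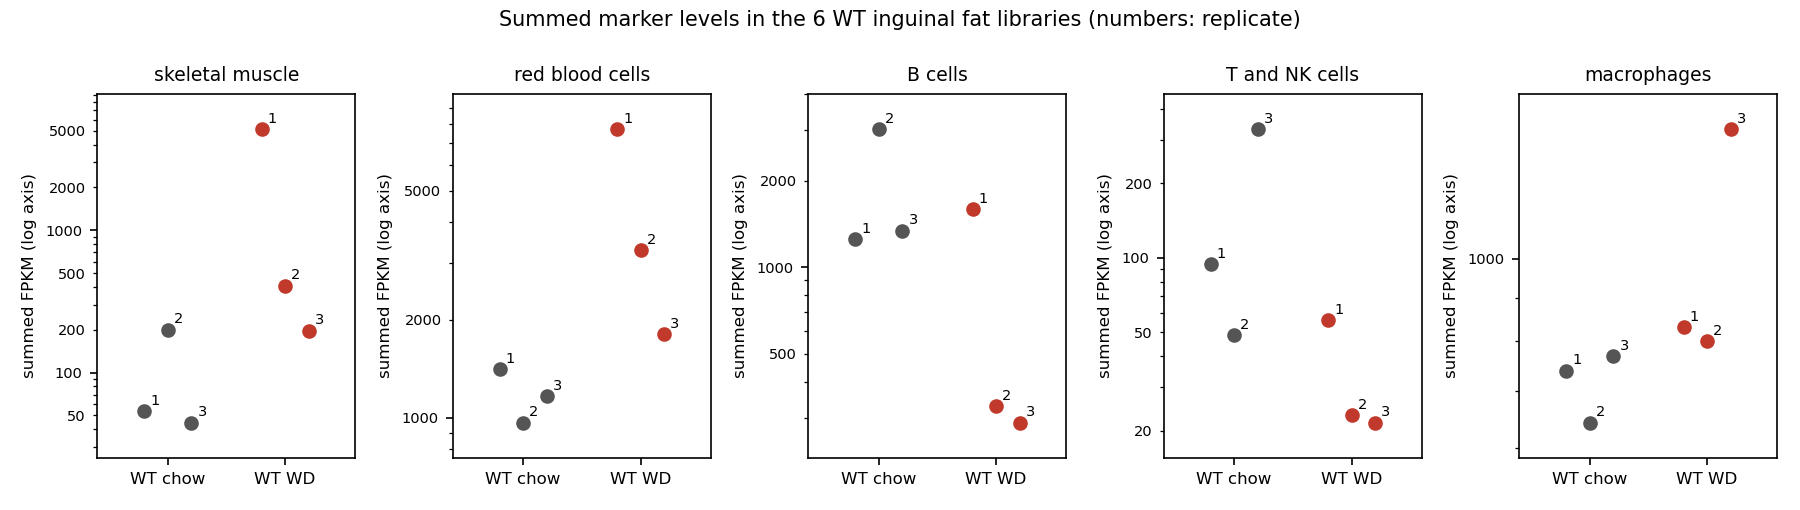
Each panel sums the FPKM of the markers of 1 cell type in the 6 WT inguinal libraries, on a log axis, with replicate numbers beside the points. WD library 1 has the highest muscle (5169) and red cell (7756) sums, and chow library 3 the highest T and NK cell sum (332).

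Genes known from growing fat were among the largest rises. Mest, an imprinted gene of the alpha/beta hydrolase family on chromosome 6 (30723547 to 30748465, plus strand, mm10), had 1.36, 13.7 and 2.05 FPKM on chow and 132, 116 and 120 FPKM on WD. The WD values lay close together and the chow values did not, with chow library 2 far above the other 2, and the fold change was 4.71 ± 1.02 (adjusted p = 0.0477). This call was lost in each of the 6 fits that lacked 1 WT library, with adjusted p from 0.0650 to 0.142, and edgeR gave 0.0913. Peg3, an imprinted zinc-finger gene on chromosome 7 (6703892 to 6730431, minus strand), had 1.86, 3.86 and 1.26 FPKM on chow and 21.9, 25 and 41.4 FPKM on WD. Its fold change was 3.22 ± 0.39 (adjusted p = 0.0108), and it was called in all 6 of those fits. Oxtr, the oxytocin receptor, had 2.08, 2.10 and 1.43 FPKM on chow and 10.9, 19.6 and 20.9 FPKM on WD, a change of 2.61 ± 0.35 (adjusted p = 0.0136), called in 4 of the 6.

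These 3 were the called members of a list of 16 imprinted and expansion-related genes, 13 of them tested. Their median was 1.12, beside 0.01 for all genes, and 12 of 13 were above 0; without WD library 1 and chow library 3 the median was 1.18. The Wnt antagonist Sfrp5 had 8.44, 25 and 11.3 FPKM on chow and 76.1, 104 and 203 FPKM on WD, which did not pass (3.03 ± 0.79, adjusted p = 0.0764). Npr3, the clearance receptor of natriuretic peptides, had 41.4, 51.8 and 36.8 FPKM on chow and 123, 133 and 172 FPKM on WD (1.70 ± 0.49, adjusted p = 0.0949). The groups did not overlap for either gene, but the spread was too wide for a call. The hormone leptin (Lep), which tracks fat mass, had 165, 240 and 94.3 FPKM on chow and 343, 686 and 682 FPKM on WD (1.80 ± 0.52, adjusted p = 0.0938).

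Neighbours of Mest and Peg3 were also called; these were picked out after their values were seen. The microRNA gene Mir335 lies within Mest, and its annotated hairpin had 0, 0 and 0 reads on chow and 16, 18 and 8 reads on WD. Its fold change was 2.82 ± 0.37 (adjusted p = 0.0127). Set against an assumed floor of 3 reads over the chow group, its level was 13.9-fold higher on WD. That ratio takes no account of the spread between mice. These libraries sample polyadenylated RNA, so reads on the hairpin and reads of unspliced Mest RNA cannot be told apart, and no mature microRNA was measured. The RefSeq sequences of both mature products (GRCm38.p6) are shown to name what the locus encodes, with the seed, bases 2 to 8, in capitals.
mmu-miR-335-5p: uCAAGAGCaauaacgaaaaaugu
mmu-miR-335-3p: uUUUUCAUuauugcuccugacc
The 5p product lies at 6:30741314-30741336 and the 3p product at 6:30741354-30741375, both on the plus strand.

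Copg2, a coatomer subunit on the other strand, had 8.24, 9.68 and 6.82 FPKM on chow and 16.7, 17.3 and 18.9 FPKM on WD (1.02 ± 0.22, adjusted p = 0.0483). It shares 912 exonic bases with Mest, and since the strandedness of the libraries is not given, reads of the 2 genes cannot be told apart there. Klf14, further along the same chromosome, had 0.549, 1.11 and 0.709 FPKM on chow and 5.05, 5.72 and 4.62 FPKM on WD, which did not pass (1.78 ± 0.41, adjusted p = 0.0589). Copg2 kept its call in 0 of the 6 fits that lacked 1 WT library, Mir335 in 5 and Zim1 in 3. Zim1, a zinc-finger gene 7442 bases from Peg3, had 0.240, 0.208 and 0.0718 FPKM on chow and 1.83, 1.68 and 3.71 FPKM on WD (1.49 ± 0.23, adjusted p = 0.0177). Its WD values all lay above its chow values, as for every gene called higher, and its level was low.

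**Figure D3:**
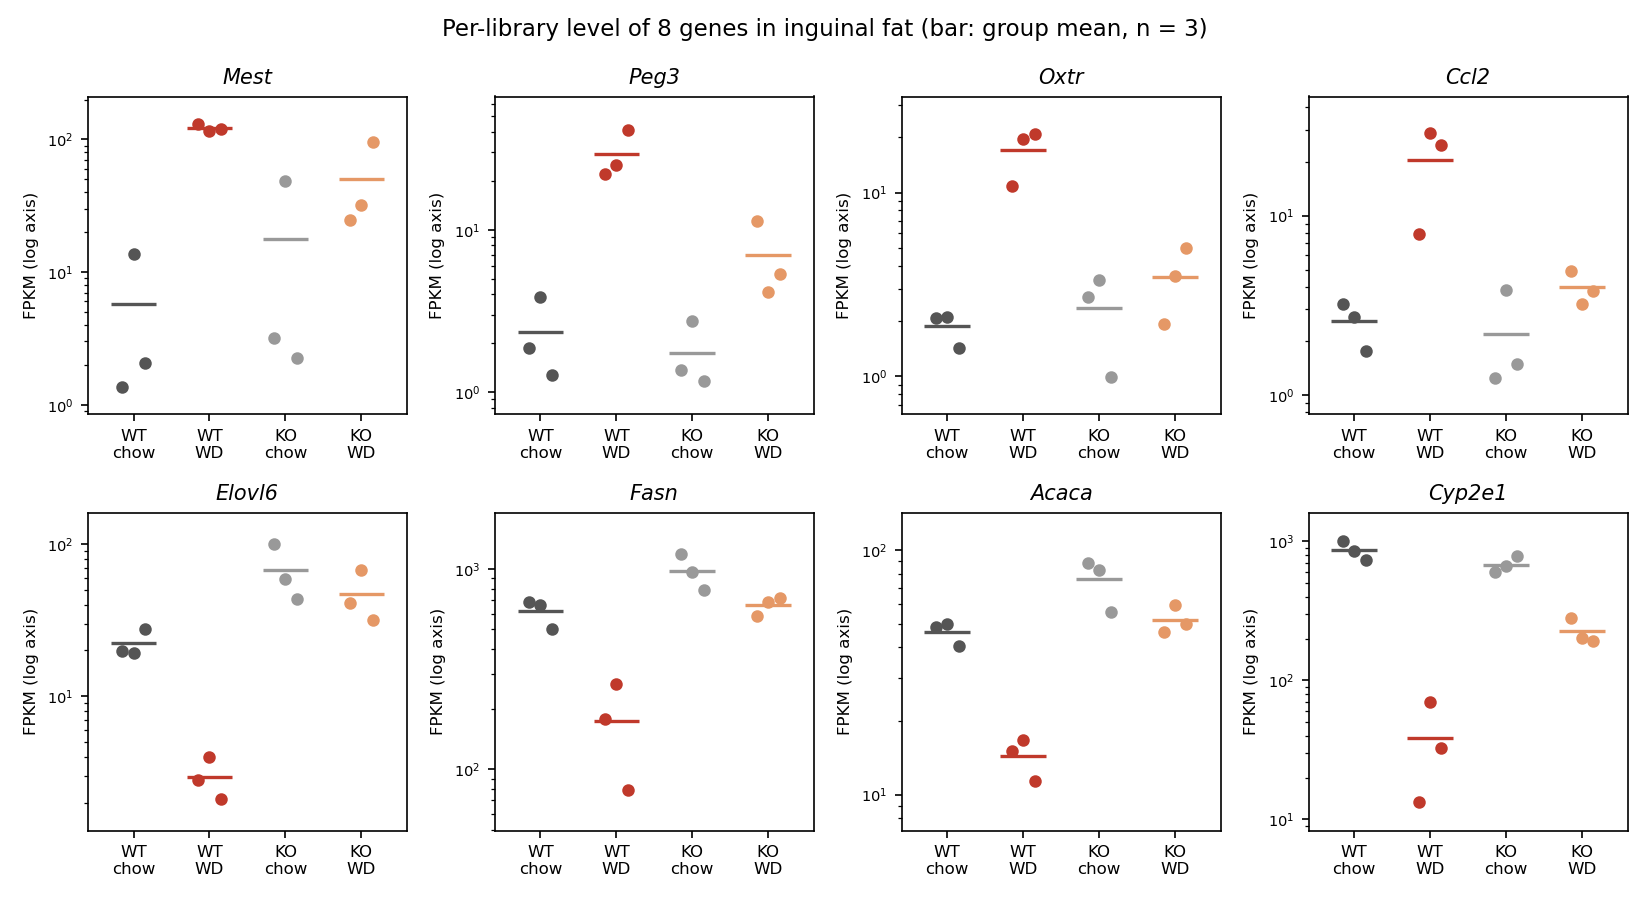
Each panel gives 1 gene in the 12 inguinal libraries as FPKM on a log axis, with a bar at the mean of 3 libraries, for WT and Mrs2 KO mice on chow and Western diet (WD). WT WD values of Mest, Peg3, Oxtr and Ccl2 lie above those of WT chow, and those of Elovl6, Fasn, Acaca and Cyp2e1 below.

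Among fatty acid synthesis genes, 6 fell. Elovl6, which lengthens palmitate, had 20, 19.2 and 27.7 FPKM on chow and 2.82, 3.99 and 2.10 FPKM on WD, a change of -2.56 ± 0.34 (adjusted p = 0.0136). Fasn had 683, 666 and 502 FPKM on chow and 179, 267 and 79.2 FPKM on WD (-1.96 ± 0.37, adjusted p = 0.0313). Acaca, whose product malonyl-CoA feeds Fasn, had 48.5, 49.7 and 40.4 FPKM on chow and 15.1, 16.7 and 11.4 FPKM on WD (-1.63 ± 0.20, adjusted p = 0.0107). In all 3 the WD values lay below the chow values. Acly, which makes cytosolic acetyl-CoA, had 179, 156 and 86.1 FPKM on chow and 39.6, 53.8 and 34.6 FPKM on WD (-1.65 ± 0.33, adjusted p = 0.0360). Aacs, which activates acetoacetate for lipid synthesis, had 77.7, 149 and 68.3 FPKM on chow and 26.8, 37.0 and 19.7 FPKM on WD (-1.74 ± 0.30, adjusted p = 0.0223). Tkt, the transketolase of the pentose phosphate pathway, had 114, 107 and 101 FPKM on chow and 43.3, 58.0 and 40.6 FPKM on WD (-1.18 ± 0.21, adjusted p = 0.0248). The groups did not overlap in any of the 6 genes, which was so for all 312 called genes. Over all genes tested, 11.8% had groups apart and lower on WD. Of the 6 fits that lacked 1 WT library, Acaca was called in all, Elovl6 in 5, Aacs in 3, Fasn in 2, Acly in 1 (adjusted p from 0.0390 to 0.136) and Tkt in 0 (0.0526 to 0.0997).

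Over the 27 genes of the synthesis list, 20 were below 0 and the median was -0.67; without WD library 1 and chow library 3 it was -1, and 1 member, Acaca, was still called. Other parts of the pathway did not pass. The desaturase Scd1 had 4112, 7979 and 3552 FPKM on chow and 7568, 6409 and 6225 FPKM on WD, overlapping ranges with a change of 0.46 ± 0.34 (adjusted p = 0.461). The transcription factors known to drive the pathway did not pass either, with -0.43 ± 0.25 for Srebf1 (adjusted p = 0.349) and -0.58 ± 0.30 for Mlxipl, which encodes ChREBP (adjusted p = 0.296).

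The 250 bases before the RefSeq start of 3 of the 6 fallen genes are shown, because these genes moved together and only their windows held a searched motif. Searched on both strands were CACGTG (an E-box), CCAAT, TCACNCCA (the core of a sterol regulatory element) and GGGCGG (a GC box), and matches are in capitals.
Fasn: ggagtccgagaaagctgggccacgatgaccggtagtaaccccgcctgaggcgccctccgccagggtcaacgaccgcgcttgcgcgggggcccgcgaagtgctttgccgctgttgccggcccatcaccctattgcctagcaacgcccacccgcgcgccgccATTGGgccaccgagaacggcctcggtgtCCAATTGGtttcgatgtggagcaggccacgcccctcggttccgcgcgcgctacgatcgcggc
Acly: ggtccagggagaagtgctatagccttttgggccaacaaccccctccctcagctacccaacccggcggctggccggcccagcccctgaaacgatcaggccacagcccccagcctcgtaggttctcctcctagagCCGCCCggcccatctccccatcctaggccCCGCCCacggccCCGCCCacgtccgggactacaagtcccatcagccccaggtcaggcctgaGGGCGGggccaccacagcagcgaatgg
Tkt: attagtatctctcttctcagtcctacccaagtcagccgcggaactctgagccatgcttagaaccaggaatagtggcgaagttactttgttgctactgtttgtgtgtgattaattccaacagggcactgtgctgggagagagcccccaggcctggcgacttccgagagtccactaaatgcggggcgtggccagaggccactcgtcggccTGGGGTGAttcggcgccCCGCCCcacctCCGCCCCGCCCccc
These windows lie at 11:120824548-120824797 on the minus strand for Fasn, 11:100528001-100528250 on the minus strand for Acly and 14:30548881-30549130 on the plus strand for Tkt (GRCm38.p6). CCAAT was in Fasn alone of the 6 windows, TCACNCCA in Tkt alone, GGGCGG in Acly and Tkt, and CACGTG in none. In that order, the motifs were in 36.1%, 3.1%, 58.3% and 8.4% of the 10032 windows of tested genes, and in 34.5%, 3.6%, 32.9% and 6.0% of all 27025 mouse windows of the same length. Only the first listed RefSeq start of each gene was searched, so a window without a match says nothing of other starts of that gene. A match is a description of the letters only.

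Other genes of triglyceride handling moved singly. Dgat1, which adds the last acyl chain of triglyceride, fell from 78.1, 78.3 and 69.7 FPKM to 42.8, 45.5 and 47.6 FPKM (-0.72 ± 0.11, adjusted p = 0.0145). Hilpda, an inhibitor of the lipase Pnpla2 on lipid droplets, rose from 3.81, 3.61 and 3.93 FPKM to 8.61, 20.1 and 15.2 FPKM (1.64 ± 0.27, adjusted p = 0.0193), and WD library 1 was the lowest of the 3. Adrb3, the beta-3 adrenergic receptor that starts lipolysis, had 131, 76.3 and 114 FPKM on chow and 30.9, 44.4 and 27.6 FPKM on WD (-1.61 ± 0.28, adjusted p = 0.0253). Adrb3 shares 839 exonic bases with the antisense gene Gm45470, which fell as well (-1.70 ± 0.24, adjusted p = 0.0143), and their reads cannot be told apart there. With 1 WT library left out, Dgat1 was called in 3 of 6 fits, Hilpda in 1 and Adrb3 in 1, for which the adjusted p ranged from 0.0467 to 0.101 and was 0.110 without WD library 1 and chow library 3. Of the 25 lipolysis and triglyceride genes 1 rose and 2 fell, with a median of -0.05. The lipase Pnpla2 itself was at 668, 725 and 492 FPKM on chow and 424, 459 and 495 FPKM on WD, which did not pass (-0.44 ± 0.16, adjusted p = 0.170).

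The adipocyte identity list gave 1 call. Of its 23 tested genes only Adrb3 was called, 20 were below 0, and the median was -0.14. Adipoq had 1458, 1342 and 826 FPKM on chow and 1141, 1197 and 1148 FPKM on WD, overlapping ranges (-0.01 ± 0.24, adjusted p = 0.979). Pparg, the master regulator of adipocytes, changed by -0.19 ± 0.24 (adjusted p = 0.692), and the insulin-responsive glucose transporter Slc2a4 by -0.54 ± 0.17 (adjusted p = 0.122). The adipocyte protease adipsin, Cfd, was at 9378, 9817 and 5742 FPKM on chow and 4322, 4348 and 3412 FPKM on WD; the ranges did not overlap, but it did not pass (-1.01 ± 0.26, adjusted p = 0.0720).

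**Figure D4:**
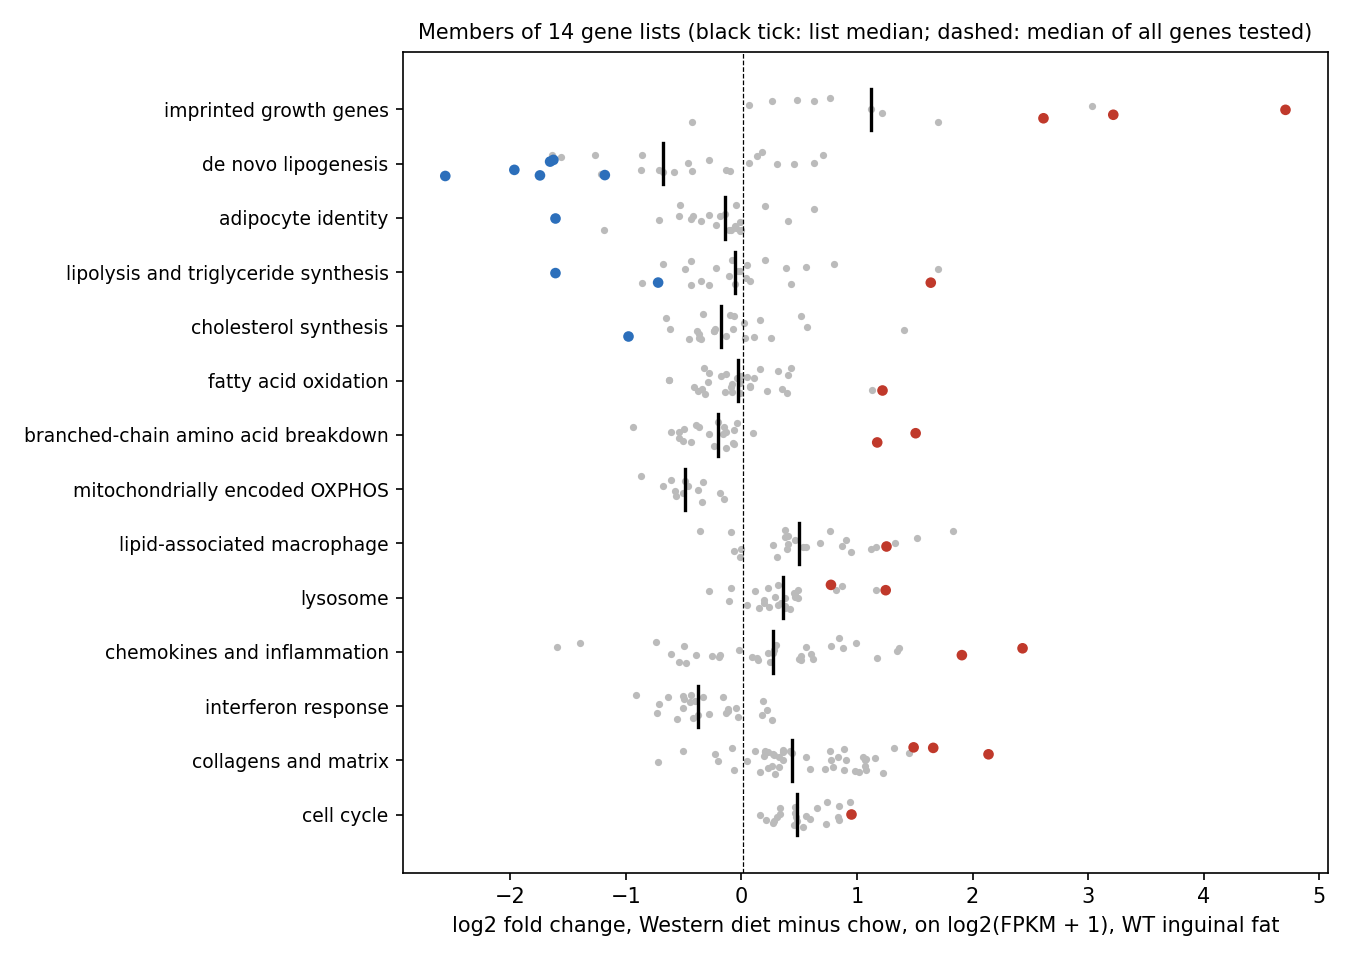
Each point is a tested gene of 1 of 14 lists, placed by its log2 fold change from chow to Western diet in WT inguinal fat; called genes are red (higher) or blue (lower), black ticks are list medians and the dashed line is the median of all genes. The list medians run from -0.67 for de novo lipogenesis to 1.12 for imprinted growth genes.

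Cholesterol genes gave 1 call in synthesis and 1 in export. Fdft1, the squalene synthase, fell from 12.4, 21.3 and 16.6 FPKM to 7.55, 8.52 and 7.33 FPKM (-0.98 ± 0.18, adjusted p = 0.0278), the only one of 24 tested synthesis genes; it shares 774 exonic bases with Ctsb on the other strand. Hmgcs1, an early enzyme of the same pathway, pointed the other way without passing, at 28.7, 22.1 and 13.0 FPKM on chow and 43.9, 71.4 and 53.6 FPKM on WD (1.40 ± 0.32, adjusted p = 0.0533). Abcg1, a sterol exporter, rose from 6.55, 7 and 9.81 FPKM to 18.6, 14.8 and 18.1 FPKM (1.06 ± 0.22, adjusted p = 0.0411), and the related Abca1 did not pass (0.34 ± 0.15, adjusted p = 0.235). Fdft1 kept its call in 1 of the 6 fits that lacked 1 WT library and Abcg1 in 0. The synthesis list had a median of -0.18 and the export list one of 0.19.

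In oxidation and central metabolism, single enzymes changed. Cpt1a, which admits long-chain fatty acids to mitochondria, rose from 12.7, 13.0 and 10.9 FPKM to 24.6, 26.8 and 39.4 FPKM (1.22 ± 0.19, adjusted p = 0.0188). It was the only one of 32 oxidation genes called, and the list median was -0.03. Pdk1, a kinase that switches off pyruvate dehydrogenase, fell from 6.74, 10 and 8.68 FPKM to 4.63, 3.50 and 3.80 FPKM (-0.92 ± 0.16, adjusted p = 0.0270). Of 23 genes of branched-chain amino acid breakdown, 20 were below 0 and the median was -0.20, yet the 2 called members rose. These were the cytosolic aminotransferase Bcat1, from 0.356, 0.816 and 0.436 FPKM to 3.17, 1.80 and 2.48 FPKM (1.18 ± 0.19, adjusted p = 0.0187), and Abat, best known for breaking down GABA, from 1.98, 2.08 and 1.48 FPKM to 7.40, 5.43 and 8.70 FPKM (1.51 ± 0.24, adjusted p = 0.0192). Bcat1 kept its call in 3 of the 6 fits that lacked 1 WT library, and Cpt1a, Pdk1 and Abat in 2 each. Bcat2, the mitochondrial form that adipocytes use, had 52.0, 48.0 and 41.6 FPKM on chow and 27.7, 27.1 and 18.6 FPKM on WD and did not pass (-0.93 ± 0.23, adjusted p = 0.0648).

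None of the 36 complex I subunits and none of the 42 nuclear subunits of complexes II to V was called, with medians of -0.07 and -0.11; 3 and 1 of them were under an unadjusted p of 0.05. The 13 transcripts of the mitochondrial genome were all below 0, with a median of -0.49, and none was called (smallest adjusted p = 0.216). They took 4.63, 4.47 and 3.54% of reads on chow and 3.42, 3.29 and 2.49% on WD, ranges that did not overlap. Ucp1, the uncoupling protein of thermogenic fat, had 0.0270, 0.568 and 0.0710 FPKM on chow and 27.5, 28.0 and 0.168 FPKM on WD. WD libraries 1 and 2 were thus high and library 3 lay within the chow range, and the change did not pass (3.04 ± 1.11, adjusted p = 0.166).

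The largest fall of a called gene was that of Cyp2e1. Cyp2e1, a cytochrome P450 that oxidises ethanol and ketone bodies among others (chromosome 7, 140763739 to 140774987, plus strand), had 1006, 853 and 742 FPKM on chow and 13.3, 70.3 and 32.8 FPKM on WD. The mean was 22.3 times as high on chow, with no overlap, as in every called gene, and a change of -4.73 ± 0.46 (adjusted p = 0.00519). Cyp2f2, another cytochrome P450, had 117, 82.8 and 35.1 FPKM on chow and 3.74, 5.01 and 1.11 FPKM on WD (-4.18 ± 0.57, adjusted p = 0.0136), and 13.5% of its exonic bases are shared with an antisense gene. Tst, the mitochondrial thiosulfate sulfurtransferase, fell from 18.0, 21.8 and 17.7 FPKM to 3.25, 3.58 and 1.39 FPKM (-2.48 ± 0.25, adjusted p = 0.00519). Cyp2e1 and Tst were called in all 6 fits that lacked 1 WT library, and Cyp2f2 in 4. Mpst, the sister enzyme of Tst that lies 509 bases away and was picked out after its values were seen, fell by 0.74 ± 0.12 (adjusted p = 0.0188). Gsta4, a glutathione transferase that clears lipid aldehydes, fell from 32.0, 25.9 and 43.0 FPKM to 10.2, 16.1 and 8.62 FPKM (-1.47 ± 0.22, adjusted p = 0.0154), and the superoxide dismutase Sod1 fell by 0.61 ± 0.12 (adjusted p = 0.0387). Both belong to a list of 24 tested antioxidant genes, with a median of -0.07, in which no other member was called. Of the 6 fits, Gsta4 kept its call in 5, Mpst in 2 and Sod1 in 1.

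Further genes fell singly. Fam13a, a gene tied to fat distribution, fell by 1.49 ± 0.22 (adjusted p = 0.0149), and Pth1r, the parathyroid hormone receptor, by 1.30 ± 0.18 (adjusted p = 0.0136). Slc5a6, the sodium-dependent vitamin transporter for biotin and pantothenate, fell from 10.9, 16.3 and 19.7 FPKM to 6.11, 3.92 and 3.50 FPKM (-1.59 ± 0.32, adjusted p = 0.0360). The class I histocompatibility gene H2-Q10 fell by 1.72 ± 0.24 (adjusted p = 0.0136), though it belongs to a family of near-identical genes and its count is uncertain. The complement component C3 fell from 243, 240 and 161 FPKM to 120, 103 and 90.6 FPKM (-1.02 ± 0.22, adjusted p = 0.0477). With 1 WT library left out, Fam13a and H2-Q10 were called in 4 of 6 fits, Pth1r in 3, Slc5a6 in 2 and C3 in 1.

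Of the chemokines for monocytes, 2 rose. Ccl2 had 3.22, 2.72 and 1.77 FPKM on chow and 7.88, 28.8 and 24.8 FPKM on WD, with WD library 1 nearest to chow (2.43 ± 0.44, adjusted p = 0.0279). Ccl7, its neighbour on chromosome 11, had 5.96, 4.36 and 2.37 FPKM on chow and 10.8, 20.1 and 25.6 FPKM on WD (1.91 ± 0.37, adjusted p = 0.0335). They were the called genes among 35 of the chemokine and inflammation list, whose median was 0.27. Ccl2 was called in 1 of the 6 fits that lacked 1 WT library, the one without WD library 1 (adjusted p = 0.00729), and its adjusted p was 0.0554 to 0.105 in the other fits. Ccl7 was called in 2, without WD library 1 and without chow library 1. With WD library 1 and chow library 3 both left out, Ccl2 was at 2.81 (adjusted p = 0.0259) and Ccl7 at 1.96 (adjusted p = 0.0598).

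No macrophage marker was called. Of 25 tested, 19 were above 0, with a median of 0.45, and 8 were under an unadjusted p of 0.05. Their sums were 740, 643 and 769 FPKM on chow and 831, 800 and 1418 FPKM on WD, with WD library 3 the highest. Cd68 had 28.2, 21.5 and 27.2 FPKM on chow and 31.1, 56.7 and 103 FPKM on WD (1.12 ± 0.38, adjusted p = 0.138), and Trem2, a receptor of lipid-laden macrophages, had 0.777, 0.688 and 1.43 FPKM on chow and 1.81, 6.42 and 7.26 FPKM on WD (1.52 ± 0.45, adjusted p = 0.10). WD library 1 was again the lowest of the 3 in both. Of the 26 lipid-associated macrophage genes, 21 were above 0 with a median of 0.50, or 0.86 without WD library 1 and chow library 3, and Ctsl alone was called. This lysosomal cathepsin rose from 37.2, 34.9 and 25.4 FPKM to 59.8, 78.0 and 99.9 FPKM (1.25 ± 0.26, adjusted p = 0.0403); 26.9% of its exonic bases are shared with an antisense gene. Gusb, the lysosomal beta-glucuronidase, rose by 0.77 ± 0.13 (adjusted p = 0.0215). With 1 WT library left out, Ctsl was called in 1 of 6 fits and Gusb in 2, and 25 of 28 lysosomal genes were above 0.

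Most matrix genes lay above 0, 43 of 49 tested; the median was 0.43 and 3 were called, all higher. Thbs1, a matricellular protein that can activate TGF-beta, had 2.21, 1.99 and 1.85 FPKM on chow and 5.23, 13.4 and 25 FPKM on WD (2.14 ± 0.44, adjusted p = 0.0422). Its relative Thbs2 had 11.2, 6.81 and 5.78 FPKM on chow and 18.1, 20.8 and 33.3 FPKM on WD (1.49 ± 0.28, adjusted p = 0.0313), and the minor collagen Col16a1 rose by 1.66 ± 0.34 (adjusted p = 0.0387). WD library 3 was the highest for both thrombospondins. The collagen receptor Mrc2, which takes up collagen for breakdown, rose from 6.18, 4.54 and 3.24 FPKM to 18.9, 24.7 and 27.5 FPKM (2.14 ± 0.36, adjusted p = 0.0215). Of the 6 fits that lacked 1 WT library, Thbs2 and Mrc2 were called in 2, and Thbs1 and Col16a1 in 1, the fit without WD library 1. The main fibrillar collagen Col1a1 had 69.0, 44.8 and 27.6 FPKM on chow and 51.9, 92.2 and 117 FPKM on WD, overlapping ranges (0.89 ± 0.63, adjusted p = 0.441). Of the adipocyte progenitor and endothelial markers, 19 and 18 tested, none was called, with medians of 0.05 and 0.10.

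The remaining large rises were of single genes. Synpo2, an actin-binding protein, had 5.11, 6.29 and 6.19 FPKM on chow and 29.3, 32.7 and 38.5 FPKM on WD (2.33 ± 0.37, adjusted p = 0.0192). Fmr1, an RNA-binding protein, had 8.72, 8.38 and 8.23 FPKM on chow and 32.4, 45.5 and 58.1 FPKM on WD (2.26 ± 0.39, adjusted p = 0.0242). Both were called in 1 of the 6 fits that lacked 1 WT library, the one without WD library 1. Lipf, a lipase best known from the stomach, had 0.188, 0.188 and 0.137 FPKM on chow and 6.45, 6.91 and 8.61 FPKM on WD, from 6, 6 and 5 reads against 208, 222 and 265 (2.82 ± 0.39, adjusted p = 0.0136). Slc5a7, the choline transporter of nerve endings, had 7, 14 and 7 reads on chow and 405, 747 and 939 reads on WD (2.54 ± 0.36, adjusted p = 0.0136). Lipf and Slc5a7 were each called in 3 of the 6 fits. Alas2, the first enzyme of haem synthesis in red cells, rose from 11.4, 5.92 and 6.49 FPKM to 59.1, 34.7 and 21.7 FPKM (2.08 ± 0.43, adjusted p = 0.0415), in the order of the red cell sums of the WD libraries. Its call was lost in each of the 6 fits that lacked 1 WT library (adjusted p from 0.0572 to 0.129) and without WD library 1 and chow library 3 (0.154). Of the 7 red cell markers tested, all were above 0 and Alas2 alone was called. The muscle-type AMP kinase subunit Prkag3 rose from 0.336, 0.432 and 0.0420 FPKM to 11.2, 2.78 and 2.65 FPKM (2.13 ± 0.44, adjusted p = 0.0411), and its highest library was the one with the muscle genes. Without that library its change was 1.56 and was still called (adjusted p = 0.0362); in the other 5 fits that lacked 1 WT library it was not (0.0766 to 0.105), nor without that library and chow library 3 (1.42, adjusted p = 0.0858).

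Cell cycle genes were above 0 throughout, 23 of 23, with a median of 0.49, and 1 passed. Ube2c, which helps to degrade mitotic cyclins, rose from 0.680, 0.612 and 0.968 FPKM to 1.73, 2.41 and 3.10 FPKM (0.95 ± 0.18, adjusted p = 0.0306). It shares 592 of its 2600 exonic bases with Tnnc2, a gene of the muscle list, on the other strand. Reads of these genes cannot be told apart there. Mdm2, the ligase that limits p53, rose from 6.11, 6.98 and 6.43 FPKM to 7.93, 8.71 and 9.09 FPKM (0.35 ± 0.07, adjusted p = 0.0428). Ube2c and Mdm2 were each called in 1 of the 6 fits that lacked 1 WT library, the one without WD library 1. The cell cycle inhibitor Cdkn1a had 3.73, 4.48 and 3.08 FPKM on chow and 16.5, 22.2 and 9.70 FPKM on WD and missed the threshold (1.79 ± 0.40, adjusted p = 0.0503). Of 25 interferon response genes 21 were below 0 with a median of -0.38, and none was called.

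The genes called in WT were then read in the KO mice, whose 2 diet groups share no library with the WT fold change. The KO libraries did help to set the spread behind the calls, so this reading is not independent of the choice of genes. Such a choice favours genes with a small spread within the KO groups, which bears on the share of KO groups apart. In KO, no gene was called for the diet by limma (1390 were under an unadjusted p of 0.05), none by edgeR and 162 by DESeq2. Of the 312 genes, 275 had the same direction in KO, or 88.1%, beside 67.3% of all genes tested. In 121 of them, or 38.8%, the KO groups were apart in the WT direction, beside 11.8% of all genes. The median change of the 199 risen genes was 0.92 in WT and 0.29 in KO, and that of the 113 fallen genes -0.83 and -0.28. The WT fold changes entered the choice of these genes, so a smaller median in KO is not in itself a difference between the genotypes.

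Tested directly, no gene differed in its diet response between the genotypes (smallest adjusted p = 0.0610; 1011 genes were under an unadjusted p of 0.05; edgeR called 0 and DESeq2 46). Mest in KO had 3.19, 48.2 and 2.24 FPKM on chow and 24.7, 32.3 and 94.9 FPKM on WD, overlapping ranges, and its difference from the WT response had an adjusted p of 0.792. Cyp2e1 in KO had 602, 661 and 782 FPKM on chow and 282, 203 and 192 FPKM on WD, a change of -1.6 ± 0.46. Elovl6 in KO had 101, 58.8 and 43.6 FPKM on chow and 40.9, 67.5 and 31.7 FPKM on WD, a change of -0.51 ± 0.34. Adrb3 pointed the other way, with 90.1, 74.7 and 48.6 FPKM on KO chow and 104, 83.7 and 122 FPKM on KO WD, a change of 0.56 ± 0.28. Its difference from WT did not pass after adjustment (unadjusted p = 0.000279, adjusted p = 0.454).

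**Figure D5:**
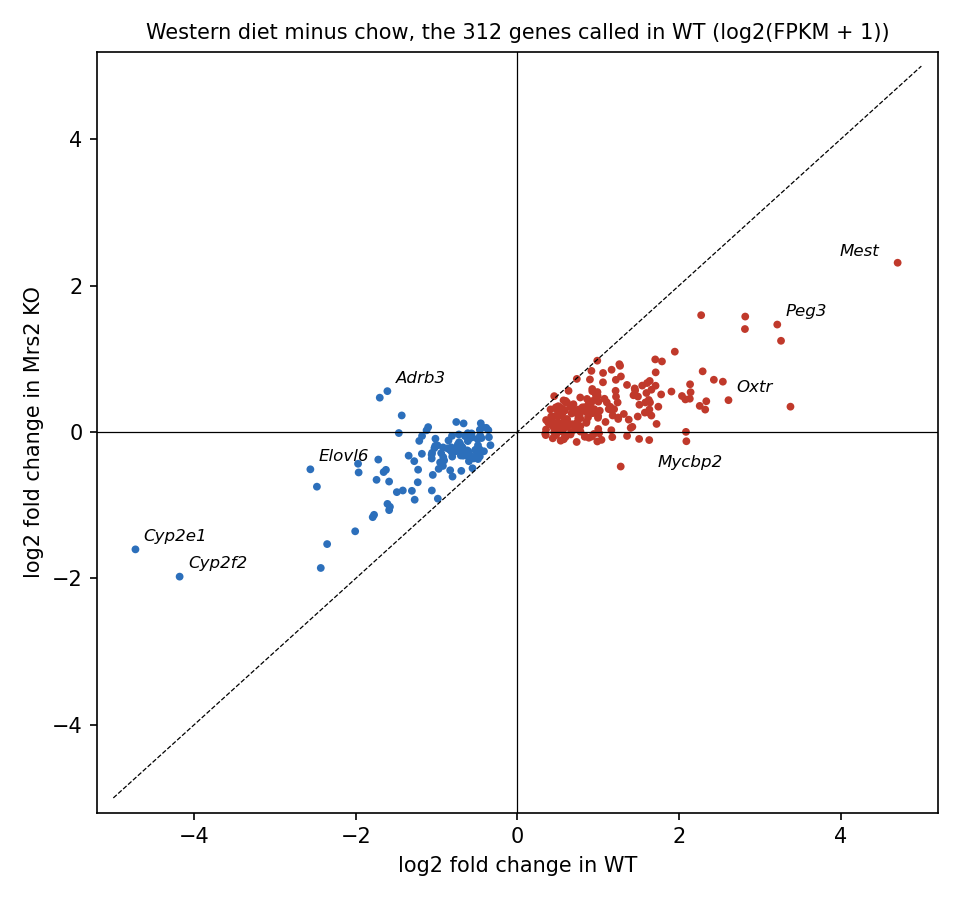
Each point is 1 of the 312 genes called in WT, with its log2 fold change from chow to Western diet in WT on the x axis and in Mrs2 KO on the y axis; the dashed line marks equal changes. Of these genes, 275 have the same sign on both axes, and Adrb3 lies at -1.61 in WT and 0.56 in KO.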

How the data were processed

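RNA of 24 mouse libraries was sequenced, per the labels from poly-T captured RNA read from both ends, and the 12 inguinal libraries are used here. HISAT2 2.0.5, DESeq2 1.20.0 and the build mm10 are listed, without roles, per the submitters' processing notes. The read counter, and whether it used strand, are not stated in the labels. The authors deposited FPKM for 54532 genes, per the file headers, and in the same deposited table the gene length in bases. Tables of KO against WT, per the file headers, hold read counts of part of the genes. The deposited FPKM times gene length and 1 constant per library gave whole reads for 285923 of 285923 values above 0 (within 0.01 reads), and 23958 of 23958 deposited counts equalled them. The WT libraries held 15984270 to 16955729 reads. The constant was 1.33 to 1.6 times those reads, so the FPKM carry a further scaling factor per library. Another 28 columns with library or group values were not used. A spreadsheet had turned 27 symbols into dates, so genes were joined by identifier.

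FPKM were tested as log2(FPKM + 1) with limma 3.58.1 (R 4.3.3; variance trend, robust prior) in 1 model of 4 groups, with Benjamini-Hochberg adjustment over 14685 genes and calls at an adjusted p under 0.05. The script was tested on simulated data. edgeR 4.0.16 and DESeq2 1.42.0 were run on the recovered reads as alternatives. Tables and figures used Python 3.11.15, pandas 2.3.3, numpy 2.4.6 and matplotlib 3.10.9. Named are, by fold change, the top 20 risen and top 20 fallen of the called genes with groups apart and a mean of at least 3 FPKM in the higher group (clone and model symbols left out), up to 6 called or 3 top members of each list, and preset genes; others are said to be picked later. Some genes that met this rule are not reported here. The members, the lists and these rules were chosen with earlier results of these data known, so nothing here is independent support for them. The study gives 3 mice as replicates per group, and the p-values measure the spread between these mice. Replicate numbers were not treated as pairs. Overlaps and 98.33% of positions match GENCODE vM21. Within WT groups Pearson's r was 0.937 to 0.969 across genes, and between them it was 0.892 to 0.941, so the ranges overlapped.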

Additional observations from a re-analysis of the deposited data

How the results depend on the processing

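All 312 called genes kept their direction under every alternative in which they were fitted. Their WT groups did not overlap, so a change of pseudocount, filter, weights or libraries could not turn it. The kept direction is therefore no sign that the calls are robust. The count of calls was 281 with a pseudocount of 0.1, 236 without a filter, 225 with a filter at 5 FPKM, 385 after median-of-ratios rescaling, 388 after quantile normalization and 405 with edgeR. It moved further to 1620 with DESeq2 (912 genes had no adjusted p), 837 with array weights, 95 with the 6 WT libraries only and 52 without WT WD library 1 and WT chow library 3; the causes were not tested. Leaving out 1 library gave 22 to 404 calls, WT or KO (the KO fits were added after seeing the data). For the difference between the diet responses of KO and WT, in place of 0 calls, 1 was made with the filter at 5 FPKM, 1 after median-of-ratios rescaling, 2 with array weights and 46 with DESeq2, and 0 to 8 when 1 library was left out. The log2 change of Adipoq, -0.01, turned to 0.042 after quantile normalization and ranged from -0.268 to 0.142 when 1 WT library was left out. An arm left with 2 libraries takes its spread from all groups.

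Equal replicate numbers of WT chow and WT WD did not deviate together (r = -0.22, 0.04 and 0.09 across genes), and the labels pair none. With a replicate block the count was 155, of which 139 were among the 312, and no call was made for the difference between genotypes.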

Other observations

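Other called genes, picked out after their values were seen, add to this account. The most abundant risen gene was Hp, the haemoglobin-binding plasma protein haptoglobin, which had 366, 440 and 230 FPKM on chow and 1105, 940 and 1076 FPKM on WD (1.63 ± 0.35, adjusted p = 0.0477). Mfge8, a secreted protein that bridges dying cells to phagocytes, had 41.9, 53.5 and 53 FPKM on chow and 117, 176 and 244 FPKM on WD (1.78 ± 0.28, adjusted p = 0.0181). Fgf1, a growth factor of fat, had 2.52, 3.84 and 2.53 FPKM on chow and 10.8, 11.4 and 13.3 FPKM on WD (1.71 ± 0.25, adjusted p = 0.0143). Both groups stayed apart in all 3 genes, as they did in every called gene. Nat8l, which makes N-acetylaspartate, fell from 39.6, 27.2 and 21.1 FPKM to 12.1, 15.3 and 11 FPKM (-1.10 ± 0.20, adjusted p = 0.0279). The potassium channel Kcnk2 fell from 3.90, 4.03 and 3.94 FPKM to 1.39, 1.23 and 1.21 FPKM (-1.12 ± 0.16, adjusted p = 0.0143). With 1 WT library left out, Fgf1 was called in 4 of 6 fits, Kcnk2 in 3, Nat8l in 2, Mfge8 in 1 and Hp in 0.

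Apart from Peg3, Acaca, Cyp2e1 and Tst, 11 genes were called in all 6 fits that lacked 1 WT library. Mycbp2, a very large ubiquitin ligase, had the smallest adjusted p of all, with 11.5, 9.05 and 8.28 FPKM on chow and 27.1, 30.3 and 38.4 FPKM on WD (1.63 ± 0.14, adjusted p = 0.00444). In KO it had 8.99, 10.2 and 8.77 FPKM on chow and 8.39, 8.80 and 8.42 FPKM on WD, and its difference from the WT response was the one nearest to the threshold (adjusted p = 0.0610). Nog, an inhibitor of bone morphogenetic proteins, rose from 0.104, 0.235 and 0.297 FPKM to 1.78, 1.74 and 1.70 FPKM (1.18 ± 0.12, adjusted p = 0.00519). Slc8a1, a sodium-calcium exchanger, rose from 0.949, 1.91 and 0.976 FPKM to 4.85, 5.49 and 5.84 FPKM (1.51 ± 0.18, adjusted p = 0.0107). Jpt2 rose by 1.38 ± 0.17 on the log2 scale, and Rassf6 and Lrtm1 fell by 1.06 ± 0.12 and 1.05 ± 0.11 from levels near 1 FPKM. In the other 5 (Fam160a1, Mlana, Mup-ps21, Gm4912 and Gm34280) the level was low in at least 1 group.

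Of the 312 called genes, 32 (10.26%) had another called gene within 50 kb, as did 4.76% of the 14685 tested genes. They made 23 pairs, of which 20 (87%) had the same direction, beside 55.7% of all 20581 pairs of tested genes within that distance, called or not. These shares are a description and were not tested. Fasn and its neighbour Ccdc57 both fell, by 1.96 and 0.49. Synpo2 and Sec24d both rose, by 2.33 and 0.83. Mycl and Trit1 both fell, by 1.79 and 0.81. Several called pairs overlap in position, such as Mest with Copg2 and Adrb3 with Gm45470, and each overlapping pair had the same direction. Several pairs also come from the cluster of Dennd2d and Cept1. Without strand information, pairs with shared bases are not 2 separate measurements.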
